A study of Mus musculus with 6 samples.

Results

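The miR-26 family comprises 5 of the 1966 mature miRNAs in the count table: miR-26a-5p, miR-26a-1-3p, miR-26a-2-3p, miR-26b-5p and miR-26b-3p. They were chosen by name, both arms of miR-26a and miR-26b, and all 5 were present. The heart tissue came from male mice of wild-type genotype, taken 8 weeks after the operation, and their small RNA was sequenced. The sham group (animals 47, 68 and 69) had the operation without a constriction. The TAC group (animals 29, 78 and 81) had transverse aortic constriction, which narrows the aorta and loads the left ventricle with pressure. Each library is 1 mouse. Strain and age are not stated in the labels, and both groups are labelled wild type with no other allele or agent.

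The family is made from 3 hairpins, each inside an intron of a gene for a small phosphatase of the Ctdsp family, enzymes known to act on the tail of RNA polymerase II and on the retinoblastoma protein. The hairpin is cut into a 5p and a 3p arm, and the arm retained by Argonaute pairs through its seed, bases 2 to 8, with messenger RNAs. miR-26 is known to repress Ezh2, the methyltransferase of Polycomb complex 2, and Smad1 of the bone morphogenetic protein pathway, and is abundant in many differentiated tissues.

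The sequences show which members can act on the same messages and which reads can be told apart. They are printed 5′ to 3′ as RNA from RefSeq (GRCm38.p6, where all 5 members matched by name and place), with the seed in capitals.
miR-26a-5p: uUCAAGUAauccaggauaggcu
miR-26b-5p: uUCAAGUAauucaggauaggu
miR-26a-1-3p: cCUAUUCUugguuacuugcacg
miR-26a-2-3p: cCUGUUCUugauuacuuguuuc
miR-26b-3p: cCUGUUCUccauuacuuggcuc

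The 5p arms carry the same seed and are identical over their first 10 bases. Counted from the 5′ end of miR-26a-5p, they differ by C11U and C21U over the 21 shared positions, and miR-26a-5p is 1 base longer, at 22. No other mouse miRNA of the RefSeq table has that seed. Among the 3p arms, miR-26a-2-3p and miR-26b-3p share a seed, which 2 further mouse miRNAs also have (miR-6932-3p and miR-7039-3p, with at most 1 count in any library). miR-26a-1-3p differs from miR-26a-2-3p at 6 of 22 positions, of which A4G lies in the seed.

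The hairpins are printed below with both mature arms in capitals, because miR-26a-5p alone comes from more than 1 of them.
Mir26a-1: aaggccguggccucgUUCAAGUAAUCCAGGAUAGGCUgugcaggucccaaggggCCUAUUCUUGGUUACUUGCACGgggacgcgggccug
Mir26a-2: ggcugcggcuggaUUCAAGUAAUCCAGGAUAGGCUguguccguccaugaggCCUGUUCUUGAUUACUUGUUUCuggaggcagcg
Mir26b: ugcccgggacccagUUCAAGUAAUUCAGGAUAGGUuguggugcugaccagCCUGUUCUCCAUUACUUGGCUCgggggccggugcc

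Mir26a-1 lies at chr9:119031796-119031885, in intron 5 of the 8-exon transcript Ctdspl-201. Mir26a-2 lies at chr10:126995530-126995613, in intron 5 of the 8-exon transcript Ctdsp2-202. Mir26b lies at chr1:74394310-74394394, in intron 4 of the 7-exon transcript Ctdsp1-201. All 3 are on the plus strand, as are their hosts, and no mature arm touches an exon of a host transcript in GENCODE M21. The hosting introns are 3283, 1946 and 564 bases long. The mature 5p sequence starts 105358 bases from the start of Ctdspl-201, 16826 from that of Ctdsp2-202 and 2815 from that of Ctdsp1-201. RNAfold paired 18, 17 and 17 bases of the 5p arm with the 3p arm in Mir26a-1, Mir26a-2 and Mir26b, at predicted free energies of -49.4, -44.5 and -43.5 kcal/mol. By these predictions the arms of the 3 hairpins pair to nearly the same extent.

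Reads of miR-26a-5p cannot be assigned to the hairpin in Ctdspl or the hairpin in Ctdsp2, so its row holds both places. The table counts a read at each of its places: miR-199a-3p, with 2 places, held between 2.0001 and 2.00037 times the count of miR-199b-3p, with 1 place. The count of miR-26a-5p can therefore be up to double its number of reads. No member overlaps a row on the opposite strand by 10 bases or more. Of the 93 rows of the table that do, 82 were at 0 in every library, against 784 of the other 1873.

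Library totals ranged from 1818725 to 3509001 counts in sham and from 1226187 to 1795831 in TAC. Every TAC library was thus smaller than every sham library. Cardiomyocyte miRNAs (miR-1a-3p, miR-133a-3p, miR-208a-3p, miR-208b-3p and miR-499-5p) held 16.9% to 20.0% of counts in sham and 24.8% to 28.3% in TAC, so markers of the labelled tissue were present in every library, and 4 of 5 were called higher, where 19.2% of all tested miRNAs were called higher and 11.3% lower. Mesenchymal markers held 2.94% to 4.18% in sham and 1.54% to 1.81% in TAC, with 4 of 4 lower. Smooth muscle markers went from 3.88% to 4.78% in sham to 5.26% to 5.64% in TAC, with 2 of 3 higher. Leukocyte markers (0.0237% to 0.0260%, and 0.0304% to 0.0318%) had 1 of 4 tested higher, and red blood cell markers (0.111% to 0.128%, and 0.149% to 0.266%) had 1 of 3 tested higher. The endothelial markers miR-126a-3p and miR-126a-5p, miR-142a-3p of leukocytes and miR-486a-5p of red blood cells were at 0 in every library, each under an opposite-strand row, so those zeros do not measure absence. The part of these markers in the miR-26 results was not tested. In bulk tissue, fewer cells of a type and less RNA per cell cannot be told apart.

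miR-26b-5p, the guide made from the Ctdsp1 intron, rose 1.50-fold in TAC hearts, or 1.21-fold on library totals, and its call was lost when a trend with GC content was taken out (1.17-fold). miR-26a-5p, the far more abundant guide with the same seed, did not pass the test. Within every library miR-26a-5p exceeded miR-26b-5p, by 21.1 to 22.9 times in sham and by 16.7 to 17.9 times in TAC. The 3p arms were at 11 counts or fewer in each library.

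Levels below are in CPM, counts brought to a common library size and scaled by the trimmed mean of M-values (TMM), a factor per library that sets the bulk of miRNAs to the same level. The mature arms are 21 or 22 bases long, so no length correction was made between members. Whether different sequences were captured equally well in the libraries was not tested. Ratios and shares of different members are therefore those of counts, not of molecules in the tissue. miR-26b-5p was at 1546, 1680 and 1579 CPM in sham hearts 47, 68 and 69, and at 2505, 2349 and 2336 CPM in TAC hearts 29, 78 and 81. The lowest TAC heart was above the highest sham heart. The mean went from 1602 ± 70.0 to 2397 ± 93.7 CPM (SD, n = 3 each), a log2 change of 0.58 ± 0.08 (standard error) with a 95% interval of 0.40 to 0.77 and an edgeR adjusted p = 0.00145. On library totals the log2 change was 0.27 (adjusted p = 0.0396), and with the GC trend it was 0.23 and not called (adjusted p = 0.109). Of 2 members tested 1 was called, and of all 354 miRNAs tested 30.5% were called, 19.2% higher in TAC. The groups did not overlap for 51.4% of all tested miRNAs, so the lack of overlap by itself does not set miR-26b-5p apart. By p value it stood 14th among the 354.

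miR-26a-5p was at 35331, 35512 and 35598 CPM in sham hearts 47, 68 and 69, and at 44795, 39229 and 39394 CPM in TAC hearts 29, 78 and 81. The sham hearts were nearly equal, and TAC 29 stood above the other TAC hearts. Sham hearts averaged 35481 ± 136 CPM and TAC hearts 41139 ± 3167 CPM (SD, 3 mice per group), which ranks it 8th of all rows by mean level. The log2 change was 0.21 ± 0.09 with a 95% interval of 0.00 to 0.43 and an edgeR adjusted p = 0.112. The unadjusted p was 0.0498 by edgeR, as it was under 0.05 for 157 of the 354 miRNAs, and after adjustment miR-26a-5p was not called. The intervals of both guides are per miRNA and not adjusted. On library totals without TMM the value was -0.09, so no direction is given.

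**Figure D1:**
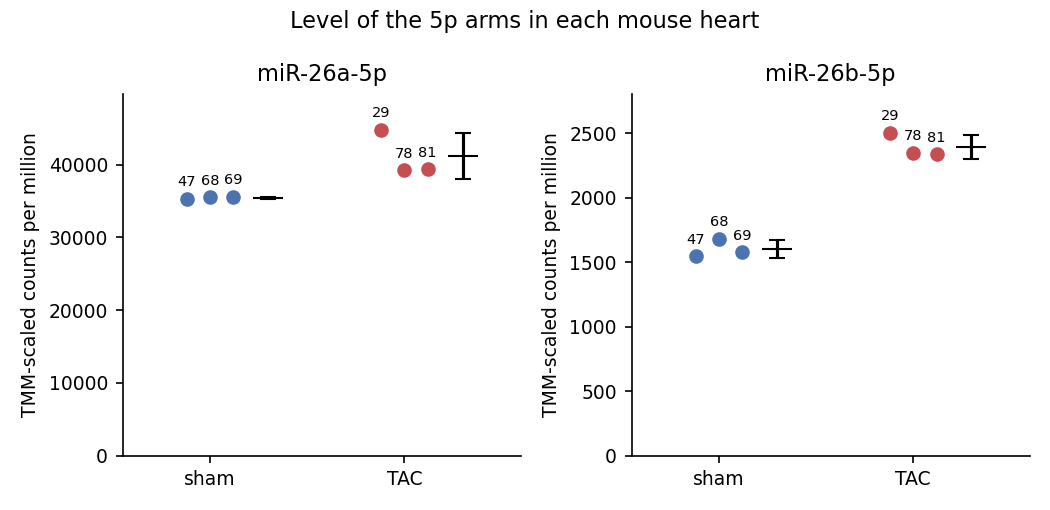
TMM-scaled CPM (linear axes from 0) of miR-26a-5p and miR-26b-5p, 1 point per mouse labelled with the animal number, with the mean and SD (n = 3) as a bar. miR-26b-5p was at 1546 to 1680 in sham and 2336 to 2505 in TAC. For miR-26a-5p, which was not called and whose log2 change was -0.09 on library totals, TAC 29 lies above the rest.

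The median log2 change of all tested miRNAs was 0.07 with TMM and -0.23 on library totals, a shift of over 0.1 that moves every member alike. Relative to the median of the same fit, miR-26a-5p was at 0.14 with TMM and 0.14 on library totals, and miR-26b-5p at 0.51 and 0.51. The direction of miR-26b-5p was the same under all 17 alternative analyses, and its call was lost in 1 of them. That was the fit in which a trend with GC content was taken from each library. miR-26a-5p was at 0.01 in the same fit and was called in none of the 17. miR-26b-5p has a GC content of 33.3% and miR-26a-5p of 40.9%. Across the 315 tested miRNAs with a RefSeq sequence, the Spearman correlation of GC content and log2 change was -0.31, as a description across miRNAs, which are not replicates. The 123 miRNAs with at most 45.5% GC had a median log2 change of 0.30, with 33 called higher and 12 lower. The 90 miRNAs above that and up to 56.5% had a median of -0.11, with 16 higher and 7 lower. The 102 with over 56.5% GC had a median of -0.21, with 5 higher and 19 lower. Both guides lie in the first of these ranges, which had the highest median of the 3.

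**Figure D2:**
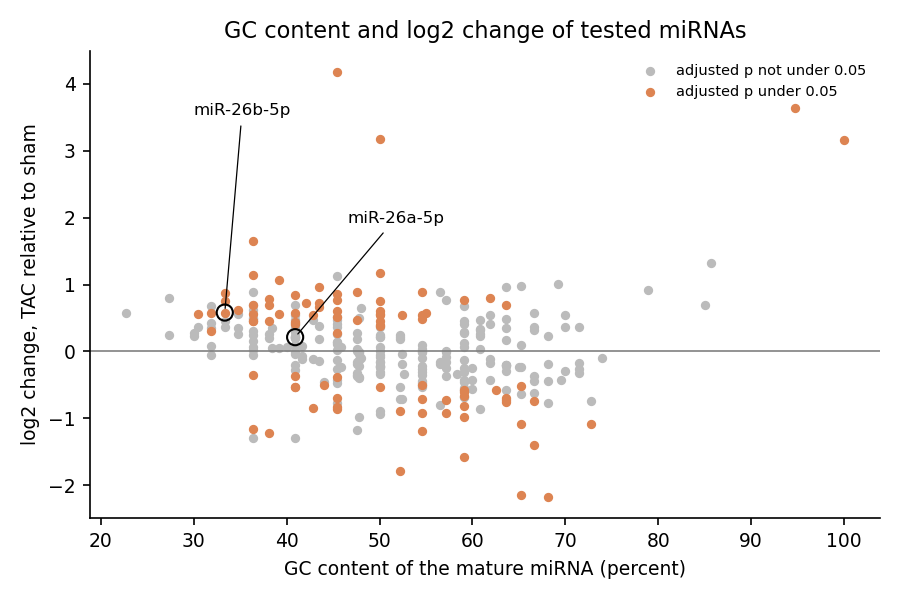
GC content of the mature miRNA in percent (x) and log2 change in TAC relative to sham (y) for the 315 tested miRNAs with a RefSeq sequence, orange where the edgeR adjusted p was under 0.05. miR-26b-5p (33.3% GC, 0.58) and miR-26a-5p (40.9% GC, 0.21, at -0.09 on library totals) are circled among the low-GC miRNAs, whose median was 0.30.

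**Figure D3:**
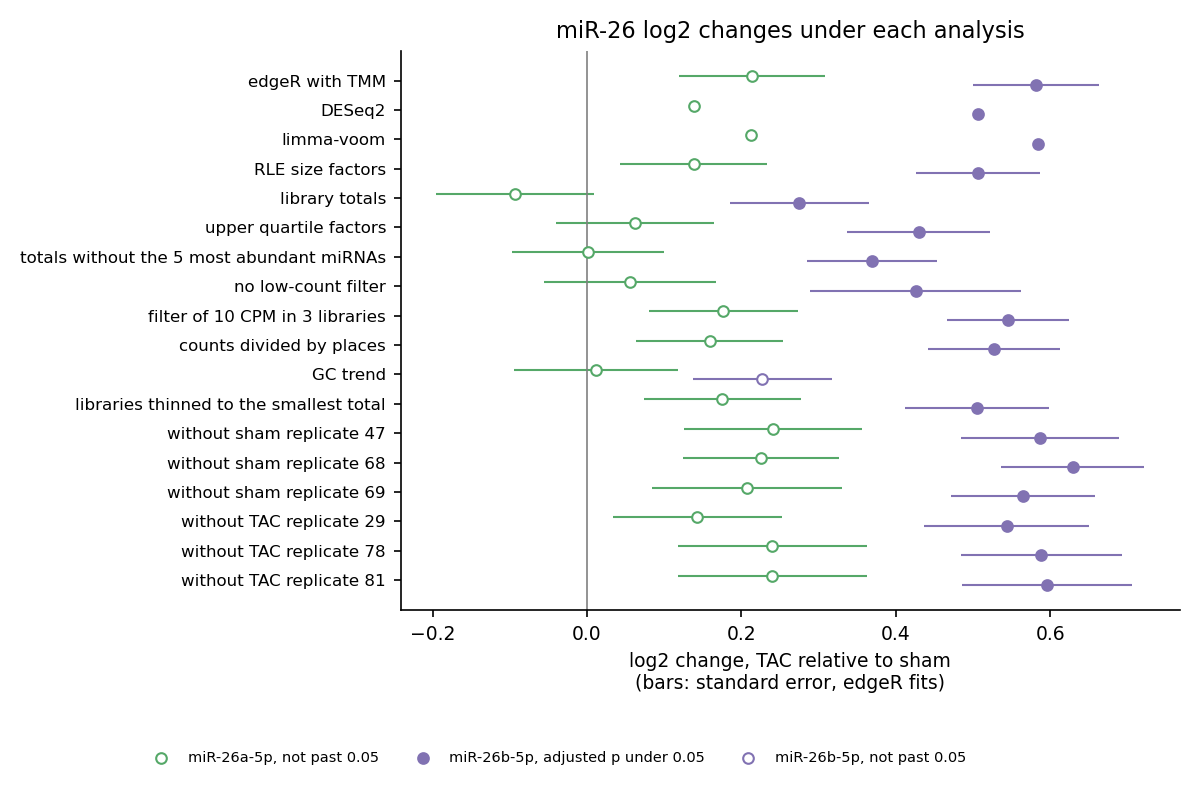
Log2 change in TAC relative to sham (x) of both guides under the edgeR analysis with TMM and 17 alternatives (y), filled where the adjusted p was under 0.05, with the standard error for edgeR fits. miR-26b-5p is filled in all but the GC trend, where it was 0.23, and miR-26a-5p is open throughout and below 0 with library totals (-0.09).

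The ratio of the guides is set within a library and does not depend on the scaling between libraries. There were 22.9, 21.1 and 22.5 counts of miR-26a-5p per count of miR-26b-5p in sham hearts 47, 68 and 69, against 17.9, 16.7 and 16.9 in TAC hearts 29, 78 and 81. Every TAC heart had a lower ratio than every sham heart. On the log2 scale the ratio averaged 4.47 ± 0.06 for sham and 4.10 ± 0.05 for TAC (SD, n = 3 each), a difference of -0.37 with a two-sided exact permutation p = 0.1, the smallest that 3 against 3 allows. Adjusted over the 5 levels and ratios tested in this way, p = 0.5 (exact permutation, Benjamini-Hochberg). The design cannot take this ratio past 0.05, and its test is reported as not passed.

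Put as a share, miR-26b-5p made up 4.19%, 4.52% and 4.25% of the 5p counts in sham 47, 68 and 69. In TAC 29, 78 and 81 it made up 5.30%, 5.65% and 5.60%. The exact (Clopper-Pearson) 95% intervals of single libraries reached no higher than 4.67% in sham and no lower than 5.14% in TAC, for counting error only, since reads without molecular identifiers are not independent molecules. With miR-26a-5p divided by its 2 places the shares were 8.05% to 8.65% and 10.1% to 10.7%. The minor guide was thus a larger part of the 5p counts in each TAC heart. Dividing by places changes the size of the shares but cannot change the order of the hearts. The log2 changes of the guides differed by 0.37 in the edgeR fit and by 0.22 with the GC trend. In the 16 other alternatives they differed by 0.33 to 0.40. The 4 other scalings among these move both guides alike, so they do not test this difference.

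**Figure D4:**
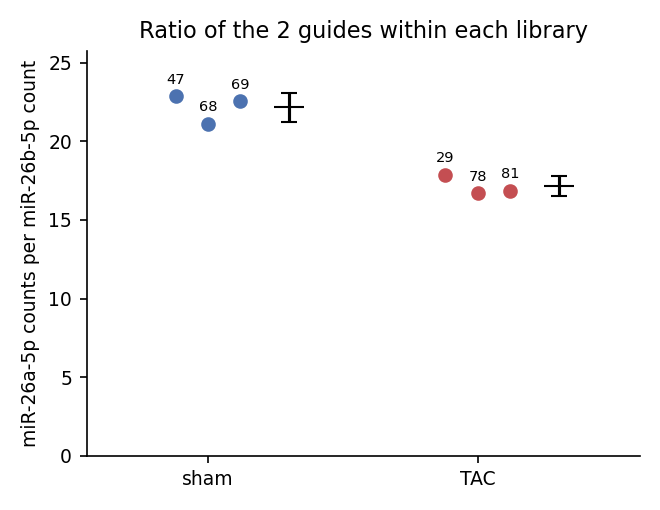
Counts of miR-26a-5p per count of miR-26b-5p in each library (linear axis from 0), labelled with the animal number, with the mean and SD (n = 3) as a bar. Sham hearts sit between 21.1 and 22.9 and TAC hearts between 16.7 and 17.9, without overlap, in a design whose smallest exact p is 0.1.

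The whole family took 4.11%, 4.08% and 4.20% of all counts in sham hearts 47, 68 and 69, while TAC hearts 29, 78 and 81 gave it 4.36%, 3.77% and 3.62%. TAC 29 was the highest of all hearts and TAC 78 and 81 were the lowest. The means of 4.13% ± 0.06 and 3.92% ± 0.39 (SD, n = 3 each) overlapped in range (two-sided exact permutation p = 0.4, adjusted 0.667). These are shares of library totals, without TMM. On the TMM scale the family summed to 36882 to 37199 CPM in sham and to 41585 to 47312 CPM in TAC, higher in each TAC heart, so its direction depends on the scaling.

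The 3p arms are the strands mostly discarded after the hairpin is cut, and unlike the 5p arm of miR-26a they tell the Ctdspl and Ctdsp2 hairpins apart. miR-26a-2-3p, of the Ctdsp2 hairpin, had 8, 6 and 3 counts in sham hearts 47, 68 and 69, and TAC hearts 29, 78 and 81 had 11, 1 and 3. miR-26a-1-3p, of the Ctdspl hairpin, had 1 count in sham 47 and 0 in the other 5 libraries, where 0 allows up to 1.17 to 2.82 CPM. Over all libraries, 1 of the 33 counts of 3p arms of miR-26a was from the Ctdspl hairpin, a share of 3.03% with an exact 95% interval of 0.0767% to 15.8%. This share describes the 3p arms only, and does not give the share of miR-26a-5p that each hairpin supplies.

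miR-26b-3p had 10, 7 and 2 counts in sham hearts 47, 68 and 69, and TAC hearts 29, 78 and 81 had 10, 10 and 3. These counts are not scaled for depth, which was lower in each TAC library. On the TMM scale the means were 2.28 ± 1.39 CPM in sham and 5.19 ± 2.08 CPM in TAC (SD, n = 3 each), with overlapping groups. miR-26b-3p and miR-26a-2-3p overlapped in both groups, so their order is not resolved, and miR-26a-1-3p was the lowest member. No 3p arm passed the filter on low counts. Fitted without that filter, in 1100 miRNAs, the log2 change of miR-26b-3p was 1.07 (edgeR adjusted p = 0.277). It was 0.61 for miR-26a-2-3p (edgeR adjusted p = 0.632). For miR-26a-1-3p, with 1 count in all, it was -1.60 (edgeR adjusted p = 0.665). A difference between groups was not detectable for the 3p arms at this depth.

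**Figure D5:**
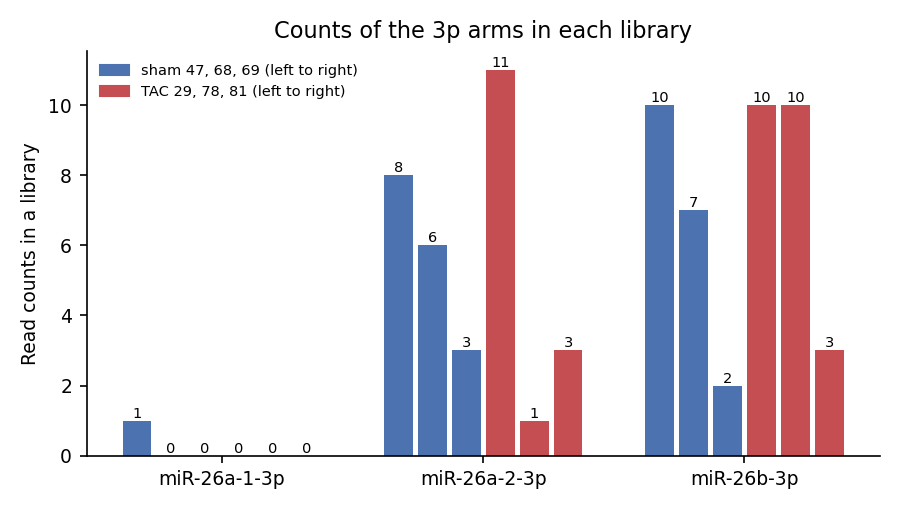
Read counts (y, linear from 0) of the 3 3p arms in each library, sham in blue and TAC in red, each bar labelled with its count. The counts are not scaled for library depth, which was lower in each TAC library. miR-26a-1-3p has 1 count in all, while miR-26a-2-3p and miR-26b-3p range from 1 to 11 with overlapping groups.

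Per hairpin, the 3p arms were 0.00696% of miR-26a counts (33 of 474315, exact 95% interval 0.00479% to 0.00977%) and 0.178% of miR-26b counts (42 of 23596, 0.128% to 0.241%) over all libraries. The difference in arm use between miR-26a and miR-26b is larger than these pooled intervals, which are for counting error and leave out the spread between mice. By library the share ran from 0.00171% to 0.0148% for miR-26a and from 0.0496% to 0.285% for miR-26b, without overlap. With miR-26a-5p divided by its 2 places the pooled share for miR-26a would be 0.0139%. Among 106 groups of hairpins with both arms in the table, at least 1000 counts and no opposite-strand overlap, the median share of the rarer arm was 1.50%. miR-26a stood 11th from the most one-sided and miR-26b 33rd. The log2 ratio of 5p to 3p for miR-26a averaged 13.97 ± 0.64 among sham and 13.82 ± 1.32 among TAC libraries (exact permutation p = 0.9, adjusted 1.0). For miR-26b it was 9.54 ± 0.98 and 8.83 ± 0.57 (exact permutation p = 0.4, adjusted 0.667, SD, n = 3 each). Neither change of arm use passed, and the difference for miR-26a turned to 0.20 without sham 69 and to 0.43 without TAC 29. The ratio of miR-26a-2-3p to miR-26a-1-3p, the last of the 5 measures, is not read, because miR-26a-1-3p was at 0 in 5 of 6 libraries and the pseudocount sets the value.

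miRNAs other than miR-26 that share its intronic origin or its known roles were read from the same fit, in lists chosen with earlier results of these data known. Of 40 miRNAs within introns of protein-coding genes, 37 were tested, of which 12 rose, 1 fell and 24 did not pass. Their median log2 change was 0.25, against 0.07 for all tested. miR-499-5p, of the Myh7b intron, went from 2619 ± 117 to 4811 ± 189 CPM (log2 change 0.88, edgeR adjusted p = 0.00044). miR-30e-5p, of the Nfyc intron, rose by 0.84 and miR-101b-3p by 0.73, both with an edgeR adjusted p = 0.000901. miR-455-3p, in the collagen gene Col27a1, was the fall, from 2551 ± 597 to 1343 ± 32.8 CPM (SD, n = 3 each). The 13 calls among 37 are near the 30.5% called of all tested in either direction. By direction, 12 rose and 1 fell, where 19.2% of all tested rose and 11.3% fell. This lean towards rises depends on the scaling and is not read as a result about intronic miRNAs. On library totals the list had 3 higher and 7 lower.

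Of 5 other miRNAs known to repress Ezh2, 4 were tested, and 2 rose, 1 fell and 1 did not pass, where 19.2% of all tested rose and 11.3% fell. Their median log2 change was -0.03. miR-101a-3p went from 2044 ± 133 to 3462 ± 258 CPM and miR-101b-3p from 1927 ± 131 to 3193 ± 240 CPM (SD, n = 3 each), but their ratio stayed between 1.05 and 1.09 in all libraries, so these rows can share reads and are not independent. miR-214-3p, of mesenchymal cells, went from 587 ± 110 to 196 ± 29.5 CPM, a log2 change of -1.58. The called miRNAs that share this target with miR-26 moved in both directions.

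Of 14 miRNAs known to restrain growth of heart muscle cells, 13 were tested, and 10 rose, 0 fell and 3 did not pass, where 19.2% of all tested rose and 11.3% fell. Their median log2 change was 0.62. With TMM, these miRNAs of growth restraint were thus mostly higher in the hearts labelled as loaded with pressure. The group of each mouse was taken from its sample title, and whether these directions bear it out was not tested. Whether miR-133a-3p and miR-133b-3p, with log2 changes of 0.62 and 0.60, share reads was not tested, so their rises may not be independent. miR-30a-5p, an abundant miRNA of cardiomyocytes, went from 12934 ± 1559 to 22091 ± 484 CPM and miR-378a-3p, in the Ppargc1b gene, from 24424 ± 1920 to 35740 ± 2507 CPM. miR-150-5p, which is also a leukocyte marker, rose by 1.17 and miR-1a-3p, a cardiomyocyte marker, by 0.86 on the log2 scale. On library totals 3 members of this list were called higher, and miR-378a-3p lost its call (0.24, edgeR adjusted p = 0.0792). Under the GC trend 3 were called higher, in a fit that took only miRNAs with a RefSeq sequence. That fit left out miR-1a-3p, miR-133a-3p, miR-150-5p, miR-185-5p and miR-378a-3p, all called higher with TMM.

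The miRNAs whose pattern over the 6 libraries came closest to each guide were found by the root mean square difference of log2 CPM centred on each miRNA's mean, among 149 others with a mean of at least 100 CPM. Nearest to miR-26b-5p were miR-218-5p (0.07), miR-128-3p (0.08), miR-206-3p (0.08), miR-25-3p (0.08) and miR-185-5p (0.09), in log2 units. Their log2 changes were 0.46, 0.47, 0.60, 0.46 and 0.52, close to that of miR-26b-5p by the way they were chosen. Nearest to miR-26a-5p were miR-145a-5p (0.07), miR-30d-5p (0.08), miR-340-5p (0.08), miR-1839-5p (0.09) and let-7d-5p (0.09), with log2 changes of 0.21, 0.20, 0.25, 0.21 and 0.22, likewise fixed by the choice.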

How the data were processed

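The deposited file, made by the authors, gives raw read counts for every mature miRNA beside its genomic place or places, in 6 columns that were each matched to a mouse by the animal number in the labels (0 columns of values were left over). Per the submitters' processing notes, mm10, HISAT2, StringTie and DESeq2 were used, in unstated roles and versions. Which program counted the reads, and how adapters and strand were handled, is not stated in the labels, which also name no batch. Coordinates are 1-based, on the assembly shared by mm10, GRCm38.p6 and GENCODE M21.

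The whole table was fitted with edgeR 4.0.16 in R 4.3.3 (quasi-likelihood F-test, TMM factors, filterByExpr with a minimum count of 10, no covariate), with Benjamini-Hochberg adjustment over all 354 miRNAs that passed, and a threshold of 0.05. The 2 5p members passed and the 3 3p members did not. Depths of 1226187 to 3509001 counts put 3 counts, the limit that a count of 0 allows, at 0.767 to 2.82 TMM-scaled CPM, for counting error only. Shares and ratios (a pseudocount of 0.5 on both sides of each ratio) were compared by a two-sided exact permutation test in scipy 1.17.1. Hairpins were folded with ViennaRNA 2.7.2. The edgeR fit was run on simulated counts, to check the direction of its calls and that larger changes were called more often. The permutation tests, ratios, shares and GC trend were not simulated.

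Alternatives were DESeq2 1.42.0, limma-voom (limma 3.58.1), 4 other scalings, 2 other filters, counts divided by places, a GC trend (local regression, span 0.75, over the 315 tested miRNAs with a RefSeq sequence), thinning to the smallest library and leaving out each mouse. Named miRNAs were the 5 members, up to 4 called miRNAs with the smallest p of each list, and the 5 nearest in pattern to each guide. The members, lists, alternatives and tests were chosen with earlier results of these data known.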

Additional observations from a re-analysis of the deposited data

How the results depend on the processing

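The log2 change of miR-26b-5p lay between 0.23 and 0.58 over 11 other analyses and between 0.54 and 0.63 without single mice. It lost its call only with the GC trend, at 0.23 (adjusted p = 0.109), and the cause was not tested. miR-26a-5p lay between -0.093 and 0.21, and between 0.14 and 0.24 without single mice, and turned to -0.093 on library totals. The family share difference of -0.21 percentage points turned to 0.084 as a share of totals without the 5 most abundant miRNAs, and was -0.43 to -0.06 without single mice. Without single mice the difference in the log2 ratio of miR-26a-5p to its 3p arms lay between -0.87 and 0.43 (0.20 without sham 69, 0.43 without TAC 29), and that of miR-26a-2-3p to miR-26a-1-3p between -0.81 and 0.66 (0.32, 0.66 and 0.05 without sham 68, TAC 78 and TAC 81), the latter set by the pseudocount, as miR-26a-1-3p was at 0 in 5 libraries. Of all tested miRNAs, 68 were higher and 40 lower with TMM. Higher calls numbered 25 on library totals, 41 with upper quartile factors, 35 without the 5 most abundant miRNAs, 42 without a filter, 36 with the GC trend, 45 after thinning and 44 to 57 without single mice. Lower calls in the first 4 of these settings numbered 102, 63, 82 and 65, and 18 to 29 without single mice. Intronic miRNAs had 3, 5, 4 and 7 higher with library totals, totals without the 5 most abundant, no filter and the GC trend. Without a RefSeq sequence, miR-378a-3p and miR-185-5p, both called higher with TMM, were not in the GC trend fit. Against 1 lower there were 2 each with DESeq2, RLE and upper quartile factors, 7 on library totals, 4 without the 5 most abundant and 3 without a filter. The growth-restraining list had 3 higher on library totals and 3 with the GC trend, where members without a RefSeq sequence were left out. No paired analysis was possible because the animal numbers are not shared between the groups. With 3 mice per group no exact permutation test can go below 0.1, and 11 or fewer counts per library limit the 3p arms.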

Other observations

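miRNAs with the same seed act on overlapping sets of messages, so the spread of log2 changes within seed groups gives a scale for the miR-26 guides. In the same edgeR fit there were 117 pairs of tested miRNAs that share bases 2 to 8, in 32 seed groups, by RefSeq sequence. The median absolute difference of log2 change within a pair was 0.33, and that of miR-26a-5p and miR-26b-5p was 0.37, with 49 pairs farther apart. Pairs overlap in their members, some share reads and some hold low-count miRNAs (miR-208b-3p, standard error 0.49), so these values are a description. By this measure, which takes no account of standard errors, the miR-26 guides stood near the middle of miRNAs with a common seed.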
